A study of Mus musculus with 38 samples.

Results

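This report describes 568 distal enhancer sites in cultured mouse cortical neurons that carried c-Fos after depolarisation but had no H3K27ac, the acetylation of histone H3 at lysine 27. The sites were taken from the authors' class of distal positions with CBP and H3K4me1 and no H3K27ac, keeping those with a position of the authors' combined c-Fos list within 500 bp. They made up 30.1% of the 1886 sites of that class and 4.80% of all 11830 distal sites with CBP and H3K4me1. The sites were therefore selected on measured H3K27ac and on c-Fos after KCl, and both are given here as description only. FosB and JunB were not used in the choice, but their libraries came from the same biological samples as c-Fos libraries.

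The cells were dissociated from C57BL/6 cortices at embryonic day 16.5 and grown for 7 days in vitro. They were silenced overnight with 1 µM TTX, which blocks sodium channels, and 100 µM DL-AP5, which blocks NMDA receptors. They were then either stimulated with KCl for 2 hours or left silenced, so the silenced neurons and the KCl neurons had both received the blockers. Biological samples 5 and 6 were all stimulated with KCl and had received shRNA against c-Fos, shRNA against FosB or a control shRNA, while biological samples 3 and 4 had no shRNA and were taken after KCl and silenced. The c-Fos protein was precipitated by a pair of antibodies (sc52 and sc7202), FosB by sc48 and JunB by sc46. The H3K27ac lists were made from biological samples 1 and 2 merged.

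AP-1 is a dimer of a Fos protein (c-Fos, FosB and relatives) with a Jun protein such as JunB, and it binds DNA at enhancers and promoters. In neurons the Fos genes are switched on within minutes to hours of membrane depolarisation. H3K4me1 marks active and poised enhancers, CBP is a coactivator that can acetylate histones, and H3K27ac is widely used to separate active enhancers from poised ones.

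Only called peaks were deposited, without read counts, so the depth of each library is unknown and a site is either inside a listed peak or outside it. List length stood in for depth as the only measure of how much was called. The 22 AP-1 lists, each from 1 library, held 557 to 28885 peaks, with 4899 to 28885 in 7 KCl lists (sc7202 in 2, FosB in 4 and JunB in 1) and 557 to 4229 in the 7 silenced lists. The labels name the 4 KCl sc52 libraries for the combined c-Fos list, but the way it was made is not given, so a part of sc7202 in it was not tested. Shares of sites carry Wilson 95% intervals, which cover counting error only. Sites of 1 library are not replicates, so groups of sites were compared over libraries or biological samples. The smallest p that the exact tests could give was 0.125 with differences within 4 libraries and 0.333 with 2 libraries against 2. None of the comparisons as planned could therefore pass 0.05.

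Most of the 568 sites lay almost on top of their c-Fos position. The median distance was 46 bp, the quartiles were 20 and 85 bp, and 547 sites (96.3%) lay within 200 bp. Sites whose H3K27ac increased with KCl and that met the same 500 bp rule (621 sites) had a median distance of 53 bp, with 87.0% within 200 bp. Sites of constant H3K27ac that met it (137 sites) had a median of 73 bp, with 78.1% within 200 bp. The unacetylated sites thus had the shortest distances of the 3 groups and the narrowest spread. The 568 sites fell on 564 different c-Fos positions, and the c-Fos positions themselves were never closer than 644 bp to each other. The rule set the limit of 500 bp, and few sites were near it. The outermost site inside, at position 58670825 of chromosome 1 (build mm9, as for all positions here), lay 493 bp from its c-Fos position and was in none of the 7 KCl lists of sc7202, FosB and JunB. The next, at position 32631985 of chromosome 9, lay at 415 bp and was in both sc7202 lists. Just outside the limit, the site at position 105593575 of chromosome 14 lay at 566 bp and was in none of the 7 lists. The site at position 187483270 of chromosome 1 lay at 578 bp and was in the FosB list of biological sample 5 alone.

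The sites were spread over the genome, from 3 on chromosome X to 48 on chromosome 1. On the autosomes they made up 22.7% (chromosome 8) to 41.0% (chromosome 12) of the unacetylated class. Chromosome 18 held 20 of them, which are counted in every value but not named. None of the positions was assigned to a gene, because no annotation of build mm9 was used here.

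**Figure D1:**
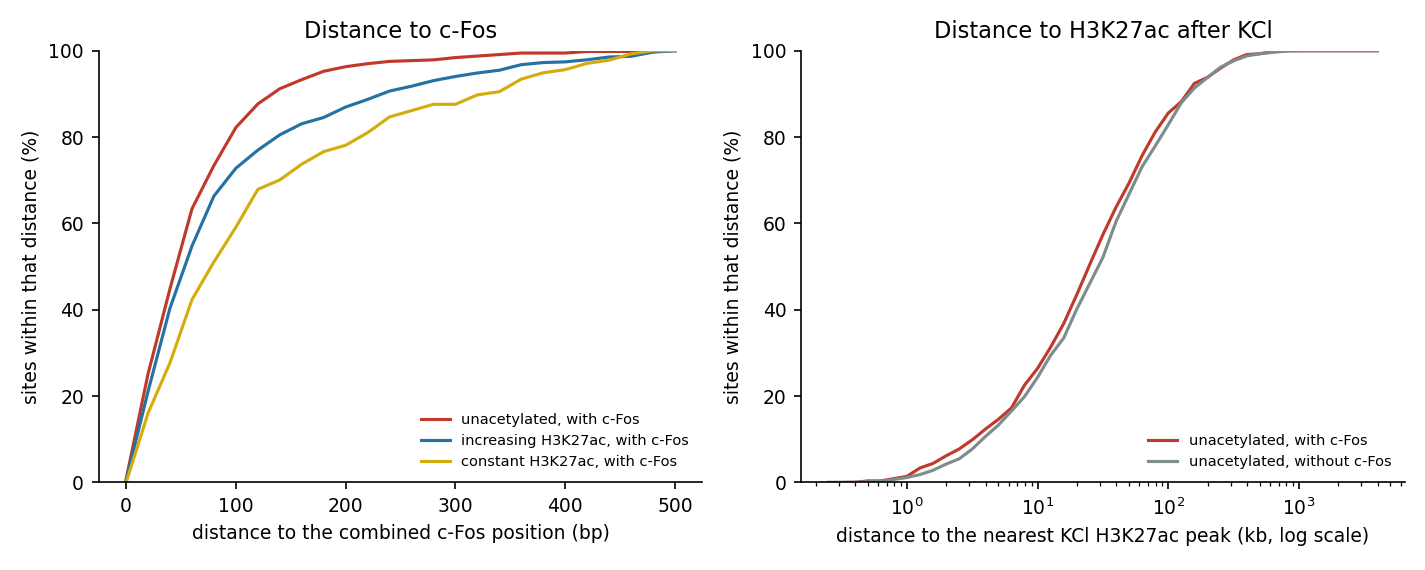
The left panel plots the share of sites (%) within a given distance in bp of the combined c-Fos position for unacetylated, increasing and constant sites with c-Fos. The right panel plots the share of unacetylated sites with and without c-Fos within a given distance in kb (log scale) of the nearest H3K27ac peak after KCl; unacetylated sites with c-Fos reach 96.3% at 200 bp on the left, and on the right both curves run close together, with 14.6% and 13.2% within 5 kb.

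The c-Fos lists that the labels name for the combined c-Fos positions held many of the sites. Of the 4 KCl lists made with sc52, biological sample 5 with control shRNA covered 93.5% of the sites, biological sample 6 with control shRNA 88.6%, biological sample 3 84.2% and biological sample 4 34.0%. Every site was in at least 1 of these 4 lists, with 5 sites in 1 list, 161 in 2, 230 in 3 and 172 in 4. Biological sample 4 stood far below the others, and its list held 6808 peaks against 19131 to 23578 in the other 3. Over all distal sites the same 4 lists covered 35.6%, 33.3%, 35.7% and 14.4%. The second c-Fos antibody, sc7202, covered 528 of the sites in biological sample 3 (93.0%, interval 90.6 to 94.8, against 47.9% of all distal sites) and 420 in biological sample 4 (73.9%, interval 70.2 to 77.4, against 33% of all distal sites). Unacetylated sites without a combined c-Fos position were inside an sc7202 peak in 28.4% of cases in biological sample 3 and 14.1% in biological sample 4. That group was not free of c-Fos: 398 of its 1318 sites (30.2%) were inside a peak of at least 1 of the 4 sc52 lists.

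FosB, a relative of c-Fos that also pairs with Jun proteins, was found at many of the sites after KCl, in shares that differed widely between libraries. The FosB lists covered 479 sites (84.3%, against 41.5% of all distal sites) in biological sample 5 with control shRNA and 338 (59.5%, against 25%) in biological sample 6 with control shRNA. In the neurons without shRNA they covered 192 sites (33.8%, against 14%) in biological sample 3 and 141 (24.8%, against 10.2%) in biological sample 4. The share was thus high in 1 list, middling in 1 and low in 2, and it followed the length of the lists, which held 22933, 14139, 10898 and 4899 peaks in that order. Over the 4 libraries the sites averaged 50.6% ± 26.9 (SD, n = 4), against 11.5% ± 9.23 in unacetylated sites without c-Fos. In each of the 4 libraries the share was higher at the sites with c-Fos, by 20.5 to 60.7 percentage points and by 39.1 points on average (exact two-sided sign-flip test over libraries, p = 0.125, or 0.188 after Benjamini-Hochberg adjustment over the 3 groups of sites compared). With the 4 lists cut to the same length the mean difference was 26.1 points. The groups were split by c-Fos positions, and the sc52 libraries named for these come from the same biological samples, 3 to 6. That split favoured a higher FosB share at the sites with c-Fos, so the direction is not independent support.

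JunB, the Jun partner mapped here, had 1 library per condition, so its values have no replicate. After KCl its list in biological sample 4 held 444 of the sites (78.2%, interval 74.6 to 81.4), against 29.0% of unacetylated sites without c-Fos and 41% of all distal sites. JunB thus covered more of the sites than FosB did in the same biological sample. Its list held 19346 peaks of median width 680 bp, against 4899 peaks of median width 187 bp in the FosB list. Of the 141 sites in the FosB list of biological sample 4, 136 (96.5%) were also in its JunB list, and these made up 30.6% of the JunB sites. FosB without JunB was seen at 1 site without sc7202 and at 4 sites with it. The most frequent combination in biological sample 4 was sc7202 with JunB and no FosB (239 sites, 42.1%, against 18.9% of all distal sites), followed by all 3 together (129 sites, 22.7%, against 8.39%). Increasing sites with c-Fos held these combinations in 48.8% and 29.3% of cases and constant sites with c-Fos in 50.4% and 21.9%. No peak of any of the 3 was seen at 71 sites (12.5%, against 52.7% of all distal sites), JunB alone at 69 (12.1%, against 12.6%) and sc7202 alone at 48 (8.45%, against 5.56%). With so much shorter and narrower a FosB list, the combinations without FosB are not shown to lack FosB binding. The part of list length and width in them was not tested.

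Set against increasing sites with c-Fos, the unacetylated sites had lower AP-1 coverage in each library, and against constant sites with c-Fos they had no one direction. Sites of increasing H3K27ac with c-Fos averaged 57.2% ± 25.8 inside a FosB peak over the 4 libraries, and the unacetylated sites were lower in 4 of 4 libraries, with differences between -9.68 and -3.91 points and a mean of -6.59 points (exact sign-flip test, p = 0.125, adjusted 0.188). The FosB, sc7202 and JunB lists were then averaged within each biological sample. Only the neurons without shRNA had sc7202 lists, and JunB was mapped in biological sample 4 alone. The control shRNA samples therefore kept their FosB values, and their directions repeat the FosB comparison. In this average the unacetylated sites stood at 66.5% ± 12.02 (SD, n = 4), increasing sites at 73.1% ± 10.2 and unacetylated sites without c-Fos at 17.4% ± 4.36. The unacetylated sites with c-Fos then differed from increasing sites by -6.53 points and from unacetylated sites without c-Fos by 49.2 points, lower and higher in 4 of 4 biological samples each (exact sign-flip test, p = 0.125 for both). The split by c-Fos favoured the second of these directions. The gap to increasing sites depended on what counts as covered. With peak centres within 200 bp of the site it was -4.14 points in the FosB lists (exact sign-flip test, p = 0.25). In the average with sc7202 and JunB it was then -1.72 points (exact sign-flip test, p = 0.5). With lists cut to the same length the gap in that average was -13.5 points, and the difference from unacetylated sites without c-Fos was 29.7 points. With sc7202 left out, so that FosB and JunB remained, the differences were -6.77 and 42.7 points (exact sign-flip test, p = 0.125 for both). Sites of constant H3K27ac with c-Fos averaged 52.7% ± 27.5 in the FosB lists. The unacetylated sites were lower in 2 libraries and higher in 2, with differences between -10.7 and 6.95 points and a mean of -2.12 points (exact sign-flip test, p = 0.75, adjusted 0.75), within the spread of the libraries. Without biological sample 3 that mean was 0.746 points, and with peak centres within 200 bp it was 2.52 points.

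**Figure D2:**
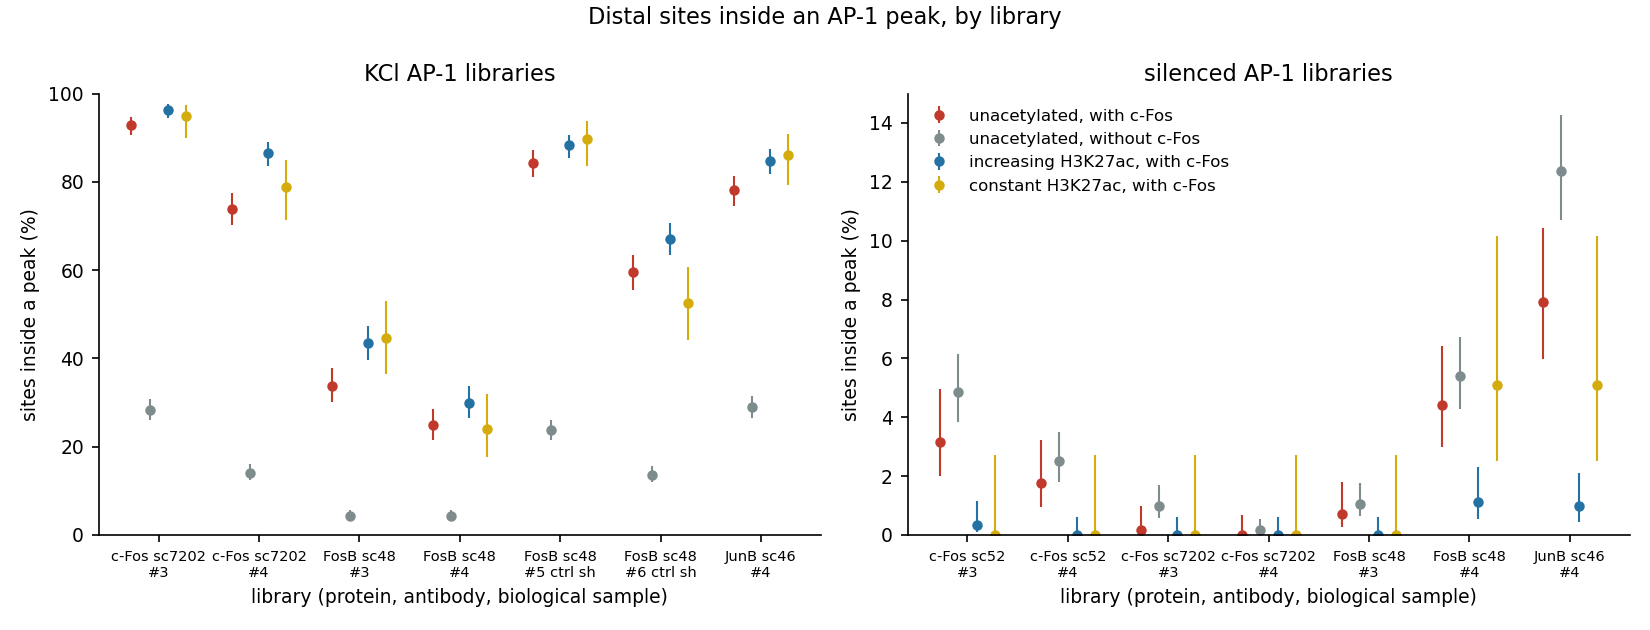
The share of sites (%) inside a peak is plotted for each AP-1 library, with KCl libraries on the left and silenced libraries on the right (the vertical scales differ); points are the 4 groups of sites, bars are Wilson 95% intervals, and # gives the biological sample. After KCl the unacetylated sites with c-Fos lie far above those without c-Fos and a little below increasing sites in each of the 7 lists, while in silenced neurons they lie below those without c-Fos in each of the 7.

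Site by site, coverage was graded and seldom complete. Of the 7 KCl lists of sc7202, FosB and JunB, the median site was in 5, the same median as for increasing sites with c-Fos, against 0 for unacetylated sites without c-Fos and 1 for all distal sites. All 7 lists covered 82 sites (14.4%), against 21.9% of increasing sites, 0.910% of unacetylated sites without c-Fos and 5.22% of all distal sites. At the other end, 9 sites (1.58%) were in none of the 7, against 38.4% of all distal sites, and 18 (3.17%) were in only 1, against 14.1%. All 4 FosB lists covered 83 sites (14.6%, against 5.33% of all distal sites), and none of the 4 covered 57 sites (10.04%, against 53.9%), of which 29 were inside a JunB peak. The FosB lists overlapped to differing degrees. Of the 192 sites in the list of biological sample 3, 188 (97.9%) were also in that of biological sample 5. They made up 39.2% of the FosB sites there, and that list held 84.3% of all 568 sites. At increasing sites the share of 97.9% was 97.8%. The list of biological sample 6 held 147 of the 192 (76.6%). Of the 141 sites in the list of biological sample 4, 134 were in that of 5, 126 (89.4%) in 6 and 94 (66.7%) in 3. Of the 338 sites in the list of 6, 311 were in that of 5.

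Coverage by the other lists was higher at sites held by more sc52 lists. The mean number of the 7 lists was 1 for the 5 sites in 1 sc52 list, 3.18 for those in 2, 4.47 for those in 3 and 5.80 for those in 4, and 64 of the 82 sites in all 7 lists were among the 172 sites in 4. For increasing sites the means were 1.78 for the 9 sites in 1 sc52 list and 3.21, 4.58 and 5.99 at 2, 3 and 4 lists. All 4 sc52 lists held 30.3% of the unacetylated sites and 47.0% of the increasing sites. Coverage was also lower farther from the c-Fos position. Sites within 20 bp averaged 4.66 of the 7 lists with 81.8% in the JunB list, and the 80 sites between 100 and 200 bp averaged 4.03 with 73.8%. The 21 sites beyond 200 bp averaged 3.43 with 57.1%. Increasing sites averaged 5.16 within 20 bp, 4.99 between 100 and 200 bp and 4.32 beyond 200 bp, with 84.7%, 85.2% and 79.0% in the JunB list. The distance is to the position that selected the sites. A site farther from a peak's centre is also more easily outside the peak, and the part of this was not tested.

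**Figure D3:**
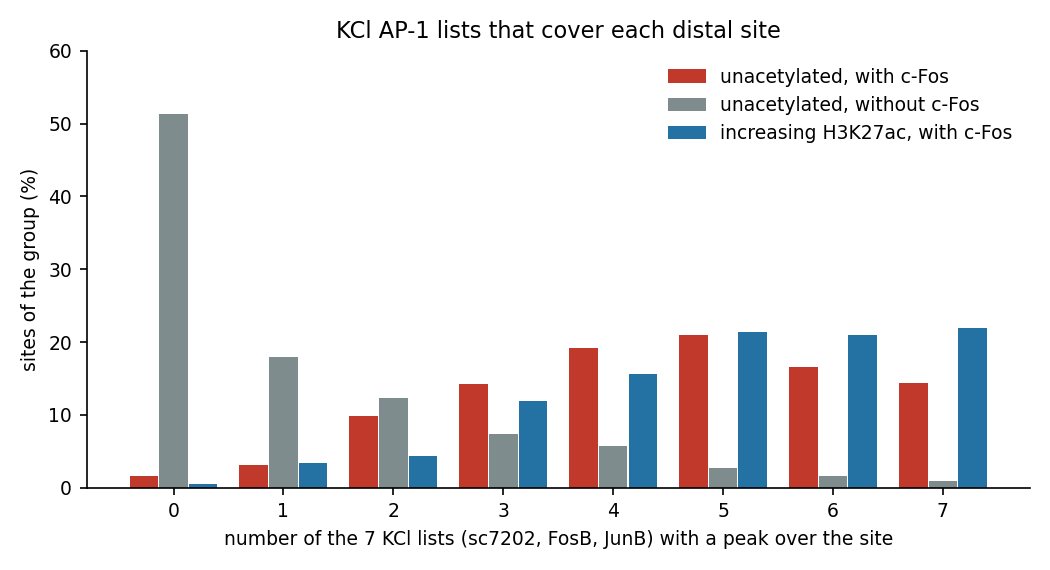
Bars give the share of each group of sites (%) by the number of the 7 KCl lists (sc7202, FosB and JunB) with a peak over the site. Unacetylated sites with c-Fos peak at 5 lists and reach 14.4% at 7, unacetylated sites without c-Fos are mostly at 0, and increasing sites with c-Fos reach 21.9% at 7.

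The peaks over the unacetylated sites ranked lower within their lists than those over increasing sites. The score percentile of a peak is the share of the peaks in its list whose score is the same or lower. In the FosB lists the median percentile at the unacetylated sites averaged 70.5 ± 5.62 (SD, n = 4) and at increasing sites 78.9 ± 3.28, lower in 4 of 4 libraries, with a mean difference of -8.48 (exact sign-flip test, p = 0.125). Among peaks of score 100 or more it was -3.35 (exact sign-flip test, p = 0.5). The JunB medians were 71.7 at the unacetylated sites and 82.2 at increasing sites. For sc7202 they were 77.3 and 87.8 in biological sample 3 and 65.8 and 82.5 in biological sample 4. In all 7 lists the unacetylated sites were the lower of these 2 groups, and in all 7 they were above the unacetylated sites without c-Fos, by 7.02 to 32.6 percentile points.

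**Figure D4:**
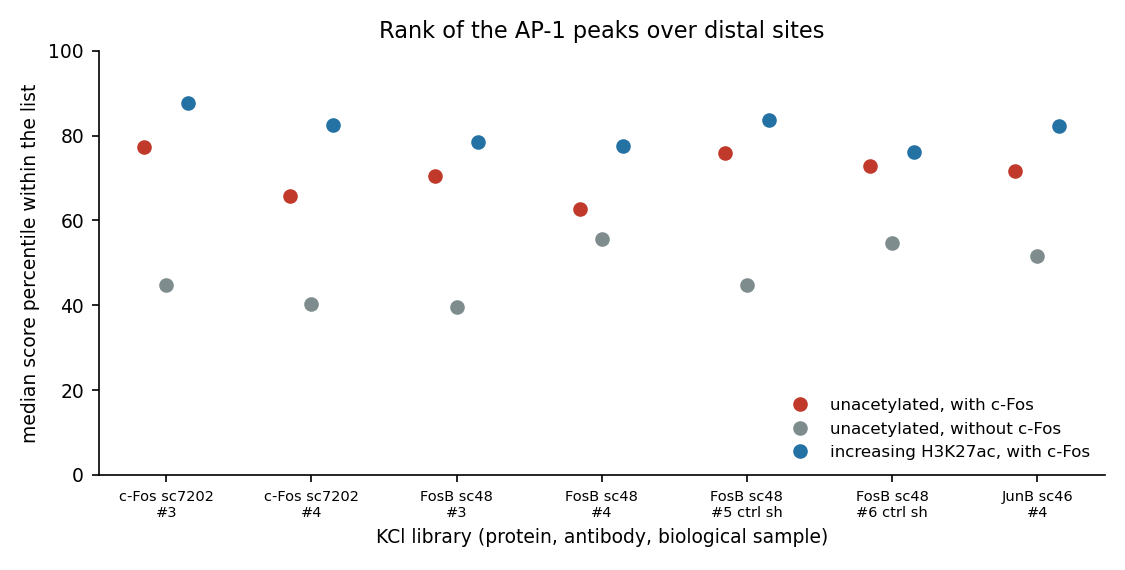
The median score percentile (within each list) of the peaks over unacetylated sites with c-Fos, unacetylated sites without c-Fos and increasing sites with c-Fos is plotted for each of the 7 KCl libraries of sc7202, FosB and JunB. Unacetylated sites with c-Fos lie between the other two groups in every library, at 62.7 to 77.3.

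Peaks over the unacetylated sites were also narrower and better centred. Their median width was lower than at increasing sites in all 7 lists, with differences between -129 and -40 bp, for example 721.5 bp against 817 bp for JunB and 715 bp against 827 bp for sc7202 in biological sample 3. The median distance from the peak centre to the site was smaller in all 7 lists as well, with a mean difference of -8.04 bp, for example 52.75 bp against 58.75 bp for JunB. A site counts only when it is inside a peak, so a narrower peak limits this distance, and the part that width has in it was not tested. Peaks over the unacetylated sites were wider than those over unacetylated sites without c-Fos in all 7 lists, by 25 to 98 bp.

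In silenced neurons few of the sites were inside an AP-1 peak. FosB covered 4 sites (0.704%, against 0.321% of all distal sites) in biological sample 3 and 25 (4.40%, against 3.19%) in biological sample 4, where JunB covered 45 (7.92%, against 5.14%). With sc52 it was 18 sites (3.17%, against 2.09%) in biological sample 3 and 10 (1.76%, against 0.93%) in biological sample 4. With sc7202 it was 1 site (0.176%, against 0.38%) in biological sample 3 and 0 of 568 in biological sample 4, which allows a share of up to 0.528% at 3 counts of the 568 (0.0254% of all distal sites were inside). In the 2 biological samples the FosB share was 29.3% ± 6.35 after KCl and 2.55% ± 2.61 in silenced neurons, a difference of 26.8 points with no overlap (exact two-sided permutation test, p = 0.333, n = 2 each). Over all distal sites the means were 12.1% after KCl and 1.75% in silenced neurons. The unacetylated sites were chosen on c-Fos after KCl, so the choice itself favoured a higher AP-1 share after KCl. With all lists cut to the same length the difference at the unacetylated sites was 10.9 points, and with peaks of score 100 or more it was 13.1 points. The JunB share was 78.2% after KCl and 7.92% in silenced neurons of the same biological sample. The silenced lists were the shorter ones in every pair, and since depth is unknown, fewer reads and less binding cannot be told apart.

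Over the pooled silenced lists the unacetylated sites were above increasing sites, which were also below constant sites and all distal sites. Together the 7 silenced lists covered 52 of the unacetylated sites with c-Fos (9.15%, against 7.31% of all distal sites), 188 of the unacetylated sites without c-Fos (14.3%), 10 of the increasing sites (1.61%) and 10 of the constant sites with c-Fos (7.30%). In each of the 7 silenced lists the unacetylated sites with c-Fos were lower than those without c-Fos. They were higher than increasing sites in 6 lists, and in the other, sc7202 in biological sample 4, both groups were at 0. JunB gave the widest gap, at 7.92% of the unacetylated sites with c-Fos, 0.966% of increasing sites, 5.11% of constant sites and 12.4% of unacetylated sites without c-Fos. These 7 lists come from 2 biological samples, and the difference was not tested over them.

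Most sites covered in silenced neurons were also covered after KCl, which the choice of sites on c-Fos after KCl favoured. Of the 45 sites in the silenced JunB list, 44 (97.8%) were in the KCl JunB list. At unacetylated sites without c-Fos this was 76.7%, and at increasing sites 6 of 6. Of the 25 in the silenced FosB list of biological sample 4, 16 (64%) were in its KCl FosB list. At unacetylated sites without c-Fos this was 32.4%, and at increasing sites 6 of 7. Of the 52 sites in any silenced list, 50 (96.2%) were in the KCl JunB list and 15 (28.8%) were in all 7 KCl lists, against 67 (12.98%) of the 516 sites in no silenced list. The KCl JunB list held 78.2% of all 568 sites. Of the sites in any silenced list it held 73.4% at unacetylated sites without c-Fos and 10 of 10 at increasing sites. Most of the 52 sites were in few silenced lists, with 23 in 1, 17 in 2, 5 in 3, 4 in 4 and 3 in 5. The 3 sites in 5 silenced lists were position 172309745 of chromosome 2, position 140847855 of chromosome 5 and position 132199915 of chromosome 7. Each was in silenced lists of sc52 and FosB in both biological samples and in the silenced JunB list, where its peak stood at percentile 98.4, 98.6 and 92.5 in that order. After KCl the site on chromosome 5 was in all 7 lists and the other two were in 5.

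Knockdown of FosB left fewer of the sites inside FosB peaks. In biological sample 5 the FosB list covered 34.0% of the sites with FosB shRNA (20.5% of all distal sites) and 84.3% with control shRNA. In biological sample 6 it covered 28.2% with FosB shRNA (13.8% of all distal sites) and 59.5% with control shRNA. The 2 groups of libraries did not overlap, with means of 31.1% ± 4.11 with FosB shRNA and 71.9% ± 17.6 with control shRNA, a difference of -40.8 points (exact two-sided permutation test, p = 0.333, n = 2 each). With the lists cut to the same length it was -19.2 points, from 28.2% with FosB shRNA and 47.4% with control shRNA. FosB peaks were kept with FosB shRNA at 189 of the 479 control sites in biological sample 5 (39.5%) and at 143 of 338 in biological sample 6 (42.3%). With FosB shRNA the lists themselves were shorter, at 9941 and 7180 peaks, where the control lists had 22933 and 14139. At the unacetylated sites with c-Fos the ratio of shares, FosB shRNA over control, was 0.403 in biological sample 5 and 0.473 in 6. It was 0.465 and 0.412 at increasing sites with c-Fos and 0.495 and 0.553 over all distal sites. The drop in percentage points was larger than at increasing sites in biological sample 5 (difference of the differences -3.17 points) and smaller in biological sample 6 (8.11 points), so the 2 biological samples went in opposite directions. Peaks of the control list in biological sample 5 had a median width of 767 bp, against 221 bp with FosB shRNA, so inclusion of a site also depended on width. Counting peak centres within 200 bp in place of inclusion gave 37.1% with FosB shRNA and 82.2% with control shRNA in biological sample 5, and 30.1% and 63.7% in biological sample 6.

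Knockdown of c-Fos left few of the sites inside c-Fos peaks, which is given as description because the labels name the control libraries of this comparison for the c-Fos list that selected the sites. With c-Fos shRNA the sc52 lists covered 29 sites (5.11%, against 6.57% of all distal sites) in biological sample 5 and 3 sites (0.528%, against 0.414%) in biological sample 6, where control shRNA gave 93.5% and 88.6%. With c-Fos shRNA these lists held 7808 and 1793 peaks, where the control lists had 23578 and 19131. Increasing sites with c-Fos kept a c-Fos peak in 15.0% of cases in biological sample 5 and 0.644% in biological sample 6. The 29 sites that kept a peak included the 3 of biological sample 6, so 29 sites (against 6.69% of all distal sites) were in at least 1 c-Fos shRNA list. Of these 29, 16 (55.2%) were in all 7 KCl lists and 8 (27.6%) in a silenced list, against 66 (12.2%) and 44 (8.16%) of the 539 others. Increasing sites with c-Fos differed in the same direction. Of the 93 in the c-Fos shRNA list of biological sample 5, 65.6% were in all 7 KCl lists and 5.38% in a silenced list. Of the other increasing sites it was 14.2% and 0.947%. The 3 unacetylated sites in both c-Fos shRNA lists were position 13565670 of chromosome 16, position 8959925 of chromosome 10 and position 47955190 of chromosome 7. Their c-Fos peaks stood at percentile 76.9, 66.2 and 24.1 in the c-Fos shRNA list of biological sample 5 and at 28.3, 29.7 and 3.96 in that of biological sample 6. The sites on chromosomes 16 and 7 were each in 4 silenced lists, and the site on chromosome 10 was in none.

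**Figure D5:**
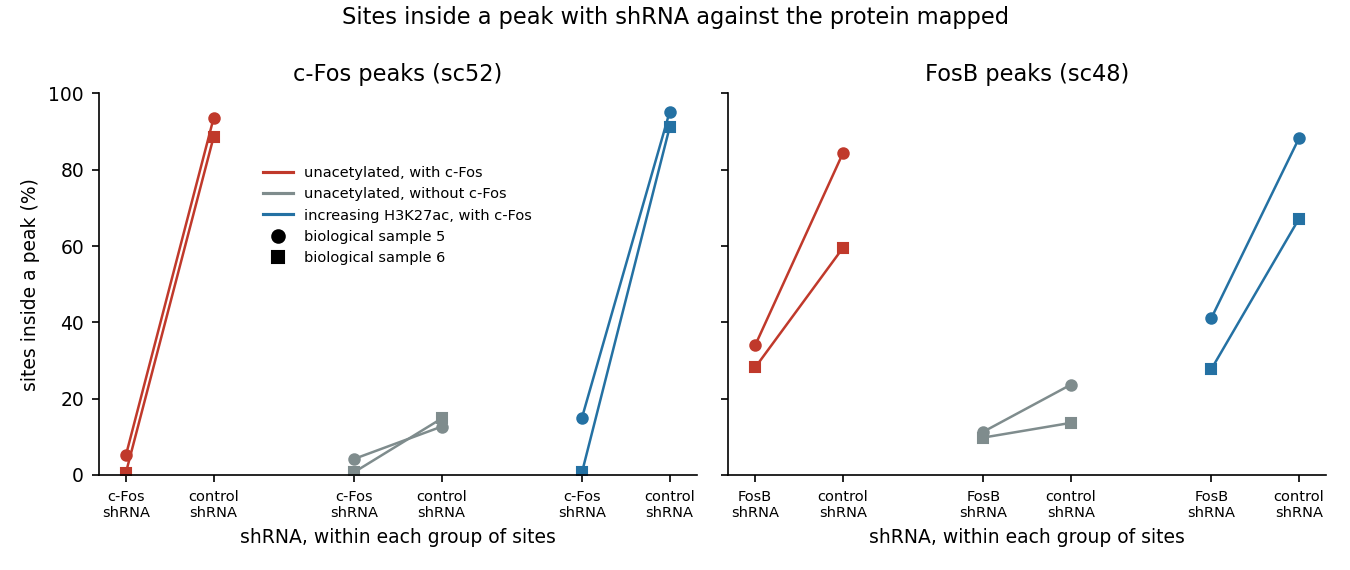
Lines join the share of sites (%) inside a peak with shRNA against the mapped protein to the share with control shRNA in the same biological sample, for c-Fos peaks on the left and FosB peaks on the right and for 3 groups of sites. FosB coverage of the unacetylated sites with c-Fos is 34.0% and 28.2% with FosB shRNA and 84.3% and 59.5% with control shRNA, and c-Fos coverage with c-Fos shRNA is 5.11% and 0.528%.

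The 6 sites with the highest AP-1 ranks lay at least 6.91 kb from any H3K27ac peak of either condition. Such distances were usual among the 568 sites. After KCl, 14.6% of them had an H3K27ac peak within 5 kb and 26.4% within 10 kb. Of the 82 sites in all 7 KCl lists, 6 led when ranked by the mean percentile of their peaks, and each was also in all 4 sc52 lists and in both FosB lists made with FosB shRNA. The first, at position 137074105 of chromosome 6, lay 3 bp from its c-Fos position and had a mean percentile of 99.7. Its JunB peak after KCl ran from 137073719 to 137074642, and its nearest H3K27ac peak lay 8.93 kb away after KCl and 9.12 kb away in silenced neurons. It was also in 4 silenced lists. The next, at position 190281345 of chromosome 1, had a mean percentile of 99.0, was in no silenced list and lay 338 kb from the nearest H3K27ac peak after KCl and 302 kb in silenced neurons. The site at position 8959925 of chromosome 10, with a mean percentile of 98.8, had its nearest H3K27ac peak at 263 kb after KCl and at 6.91 kb in silenced neurons. The site at position 151818745 of chromosome 3 also averaged 98.8 and was in 2 silenced lists. The sites at position 85487725 of chromosome 16 (98.6) and position 35299170 of chromosome 1 (98.4) were in none, and the site on chromosome 16 was the only one of the 6 in no c-Fos shRNA list. Opposite cases were the 9 sites in none of the 7 lists, among them position 36478020 of chromosome 15, position 173758140 of chromosome 1 and position 103562960 of chromosome 7, although these lay only 25, 36 and 38 bp from a c-Fos position.

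None of the 568 sites was inside an H3K27ac peak after KCl or in silenced neurons, as the name of their class says. The class does not hold every distal site without a peak. Another 3387 distal sites were in no H3K27ac peak and in none of the authors' 4 H3K27ac classes. For the 568 sites the median distance to the nearest H3K27ac peak was 24548 bp after KCl and 24337 bp in silenced neurons, with shortest distances of 455 and 706 bp. For unacetylated sites without c-Fos the medians were 29102 bp after KCl and 28948.5 bp in silenced neurons. An H3K27ac peak lay within 5 kb of 83 sites after KCl (14.6%) and of 76 in silenced neurons (13.4%), and within 10 kb of 26.4% in both conditions. Within 50 kb it was 69.4% in both. Unacetylated sites without c-Fos were close to this after KCl, with 13.2% within 5 kb, 24.4% within 10 kb and 66.7% within 50 kb. For all distal sites after KCl it was 58.2%, 64.7% and 86.5%. These shares include the 48.2% of all distal sites that were inside an H3K27ac peak, so they are not a like comparison. The H3K27ac lists are merged lists without replicates. By that distance the mean AP-1 coverage was similar and the share of sites in all 7 KCl lists varied more. The 83 sites within 5 kb averaged 4.34 of the 7 KCl lists with 8.43% in all 7, and the 164 sites from 5 to 20 kb averaged 4.45 with 12.8%. The 147 sites from 20 to 50 kb averaged 4.63 with 18.4%, and the 174 sites beyond 50 kb averaged 4.44 with 15.5%. In the same order 6.02%, 7.32%, 11.6% and 10.3% of the sites were inside a peak of a silenced list.

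The sites were also rather isolated among enhancers. Another distal site with CBP and H3K4me1 lay within 10 kb of 24.5% of them, against 22.4% of unacetylated sites without c-Fos, 41.4% of increasing sites with c-Fos, 46.0% of constant sites with c-Fos and 33.4% of all distal sites. Within 2 kb the shares were 5.99% for the unacetylated sites with c-Fos, 4.93% for those without, 18.2% for increasing sites and 27.01% for constant sites. An increasing site lay within 50 kb of 8.45% of the sites, against 6.98% of unacetylated sites without c-Fos. Another unacetylated site lay within 50 kb of 17.3%, against 19.4%. These neighbour shares count positions and were not tested.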

How the data were processed

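ChIP-seq peaks deposited for H3K27ac, for JunB and FosB and for c-Fos were used. Reads were aligned with BWA to build mm9, per the submitters' processing notes. The sources used here do not give its version, the peak caller's settings and control, or the making of the combined c-Fos positions and H3K27ac classes. The deposited score per peak, from MACS by the peak names in the files, ranks peaks within a list. Other deposited lists hold single positions in bp.

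A site was covered when it lay inside a peak. Numbers of biological samples came from the labels, and libraries with the same number share a sample, which pairs them. Shares were compared by exact permutation and sign-flip tests (Python 3.11.15, numpy 2.4.6, scipy 1.17.1, figures with matplotlib 3.10.9). Finding sites inside peaks was checked on a simulated peak list, the sign-flip test on random differences and the permutation test on a fixed example. Nothing tells that samples came from separate litters, so p-values measure the spread between them. Alternatives changed the peak threshold, the overlap, the c-Fos distance, list length, neighbouring sites, chromosomes, the block and each biological sample left out. Members and lists were chosen with earlier results of these data known. Named sites were the 6 in most KCl lists by mean percentile, the 3 in both c-Fos shRNA lists, the 3 in no list nearest to c-Fos, the 3 in most silenced lists and those next to the 500 bp limit. Input libraries were not analysed here, and the planned motif search was not run without an mm9 genome.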

Additional observations from a re-analysis of the deposited data

Results flagged for a closer look

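The KCl c-Fos list made with sc52 in biological sample 4 covered 34.0% of the unacetylated sites with c-Fos, far from the other c-Fos lists after KCl. The next lowest of the 4 sc52 lists was at 84.2%, and the gap was 0.843 of the range of the 4, above Dixon's 95% critical value for 4. Among all 6 KCl c-Fos lists of both antibodies the next was at 73.9%, the sc7202 list of the same biological sample, and the gap was 0.672 of the range, above that for 6. The list held 6808 peaks, the fewest of the KCl c-Fos lists without c-Fos shRNA, and the part of list length in its share was not tested. The labels name this library for the combined c-Fos list, and no test in the text used it. Of the 4 sets of libraries looked at in this way, chance alone sets off about 1 in 20.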

How the results depend on the processing

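Of 110 recomputed values, 107 kept their direction. The 3 that turned were the FosB difference between the unacetylated and the constant sites with c-Fos (-2.12 points): 2.52 with peak centres within 200 bp, 1.52 with c-Fos within 1000 bp and 0.746 without biological sample 3. Leaving out each biological sample gave -5.15 to 0.746 for that difference and -7.48 to -5.56 against increasing sites. Against unacetylated sites without c-Fos it gave 31.9 to 45.3, and in the average with sc7202 and JunB 45.4 to 51.2 (-7.40 to -6.02 against increasing sites). The FosB percentile difference was -10.2 to -6.37. KCl against silenced gave 20.4 to 33.1, and FosB shRNA against control -50.4 to -31.3. Making all lists equally long or changing other settings took these last 2 to 10.9 and -19.2 at the weakest. With a replicate block for the shared biological sample, their exact p became 0.5, the smallest possible with 2 pairs, and no call changed. With no replicate block, p was 0.0286 for the FosB difference of 39.1 points and the percentile difference of -8.48. The same p was found for the difference of 49.2 points in the average with sc7202 and JunB. Against increasing sites p was 0.686 for FosB and 0.429 in the average with sc7202 and JunB. Against constant sites it was 0.943 for FosB. The p-values with no replicate block ignore that both groups of sites were read in the same libraries. With each of the 7 libraries as a unit, although several share a biological sample, the exact sign-flip test gave p = 0.0156 for 47.2 and for -6.97 points. The split by c-Fos favoured the direction of the 39.1, 49.2 and 47.2 points, so these p-values are not independent support. Leaving out sites covered in silenced neurons, or the sc7202 lists, was chosen after seeing the data. It turned none of the 6 and 2 differences between groups of sites it was run for. Depth is unknown, so a site outside all peaks is not shown to be unbound.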
